A study of Mus musculus with 6 samples.

Results

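The integrated stress response and its amino acid programme were followed through 32 genes in hair follicle stem cells of mice given diphtheria toxin (DT) or saline. The genes were taken from a fixed list of symbols, matched by Entrez identifier, and all 32 were found among the 36528 identifiers of the files. Of these, 31 had enough reads to be tested among 15132 genes, and the cationic amino acid transporter Slc7a3 did not. By role they were grouped as 6 transcription factors, 7 stress effectors and regulators, 7 serine and one-carbon enzymes, 5 other amino acid enzymes and 7 amino acid transporters.

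Polyadenylated RNA was sequenced from skin cells of Lgr5-DTReGFP mice, which carry the diphtheria toxin receptor and eGFP at Lgr5. Both groups carried this allele. Cells with surface CD49f, an integrin of basal keratinocytes, and the bulge marker CD34 but without GFP were sorted, so the reporter-positive cells that the toxin targets were gated out. The DT group and the saline group (NaCl in the labels) had 3 libraries each. The age of the mice, the toxin dose, the time to collection and whether libraries came from separate animals are not stated. Each p-value therefore reflects how far these 3 libraries of a group scatter, and that scatter may be only technical. The estimate of scatter for a gene also borrows from the other genes tested. There was no DT group without the receptor, and in these bulk samples a change in the mix of sorted cells and a change within cells cannot be told apart.

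When a cell is short of amino acids, when its endoplasmic reticulum is overloaded or when other stresses strike, kinases phosphorylate the translation factor eIF2. Translation then falls in general, while that of a few mRNAs, Atf4 above all, rises. ATF4 is a transcription factor that, with C/EBP partners, switches on genes for amino acid uptake, for the synthesis of serine, asparagine and proline, for the folate cycle of mitochondria and for tRNA charging, and also genes that end the response. Much of ATF4 control lies in translation, which mRNA levels do not show.

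The libraries held 15300755 to 25558859 reads in genes. Saline library 1 had the fewest genes with reads, 17405, against 18799 and 19716 in saline libraries 2 and 3. On the second principal component it stood at 56.9, and saline libraries 2 and 3 at -30.7 and -34.5. The DT libraries were between -4.9 and 7.2 there. CPM are reads of a gene relative to all reads in genes of its library, scaled between libraries by TMM, a trimmed mean of ratios. The summed level of keratinocyte markers was high in all libraries, at 43684 to 57874 CPM in saline and 46281 to 66955 CPM in DT. Within that list Krt14 rose from 2573 ± 331 to 8816 ± 514 CPM (1.78, adjusted p = 5.16e-05), and Lhx2 (-1.09), Sox9 (-0.71) and Nfatc1 (-0.69), transcription factors of bulge stem cells, fell. Nfatc1 lost its call without DT library 2 or 3, and Sox9 without any 1 library other than saline library 3 or DT library 1. Krt15, Krt5, Cd34, Itga6 and Tcf7l1 did not pass. Krt15 made up most of the sum. The summed levels of markers of other cells were low beside this, and several moved with the groups. Most of the immune sum came from Cd74 (152 ± 20.6 CPM in saline and 98.0 ± 9.47 CPM in DT). Mitf (103 ± 14.8 and 66.9 ± 9.70 CPM) made up most of the melanocyte sum and Col1a2 most of the fibroblast sum. Cd74 and Mitf were above Tcf7l1 in both groups. The summed level of 9 immune markers was 159.7 to 227 CPM in saline and 107 to 132 CPM in DT, where 3 of the 8 tested fell and Itgam rose, though not without DT library 2. For 5 melanocyte markers it was 99.6 to 142 CPM and 64.5 to 83.6 CPM, and 3 fell. For 6 fibroblast markers it was 23.5 to 41.3 CPM and 9.47 to 16.9 CPM, with Lum at 0 in every library. For 3 endothelial markers it was 2.27 to 12.6 CPM and 6.56 to 8.59 CPM, and the 2 tested did not pass. For 4 smooth muscle and pericyte markers it was 0.601 to 1.82 CPM and 23.3 to 102 CPM, nearly all from Acta2, with Rgs5 at 0 in every library. All 9 cell cycle genes rose, from a summed 126 to 160.0 CPM to 720.2, 1326 and 1363 CPM in DT libraries 1 to 3. The part of these shifts in the results below was not tested.

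Of the 31 members tested, 13 rose in DT and 0 fell (edgeR quasi-likelihood test, Benjamini-Hochberg adjusted over all genes tested). Over all genes 17.2% rose and 11.9% fell, or 2600 and 1795 genes (2099 and 2316 when scaled by library size only). The median log2 fold change, DT minus saline, was 0.46 over the members and -0.01 over all genes. By role, 5 of 7 serine and one-carbon enzymes, 3 of 6 tested transporters and 2 of 5 other amino acid enzymes passed. So did 2 of 7 effectors and 1 of 6 transcription factors. The median log2 fold changes of these roles were, in that order, 1.23, 0.98, 0.32, 0.15 and 0.45. The lists are short, and a difference between roles was not tested. The other 18 members had log2 fold changes between -0.72 and 0.88, 11 of them above 0. The count that fell was 0 also at an unadjusted p under 0.05, in DESeq2 and in limma.

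The 13 that rose did so by 0.46 to 3.10 on the log2 scale. Of these, 10 at least doubled and 4 (Mthfd2, Ppp1r15a, Slc7a1 and Psat1) more than quadrupled. In 14 of the 31 members tested, the lowest DT library lay above the highest saline library, which held for 25.4% of all genes. The 14 were Atf5 and the 13 that rose. For the 13 this order adds no support, since the test that picked them used the same libraries. DT library 1 was the lowest DT library for 10 of the 13. Over all genes DT library 1 also stood nearest the saline libraries on the first principal component. It was at 47.4 there, and DT libraries 2 and 3 were at 80.5 and 66.1. The share of all genes with DT library 1 lowest was not counted. Without 1 library at a time the count of members that rose was 13 without DT library 1, 10 without saline library 1 or 2, and 9 when saline library 3 or either of DT libraries 2 and 3 was left out. Atf4, Ppp1r15a, Phgdh, Psat1, Mthfd2, Mthfd1l, Asns, Slc7a1 and Slc1a5 passed under each of the 16 alternative analyses, and Chac1, Psph, Aldh18a1 and Slc1a4 did not.

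**Figure D1:**
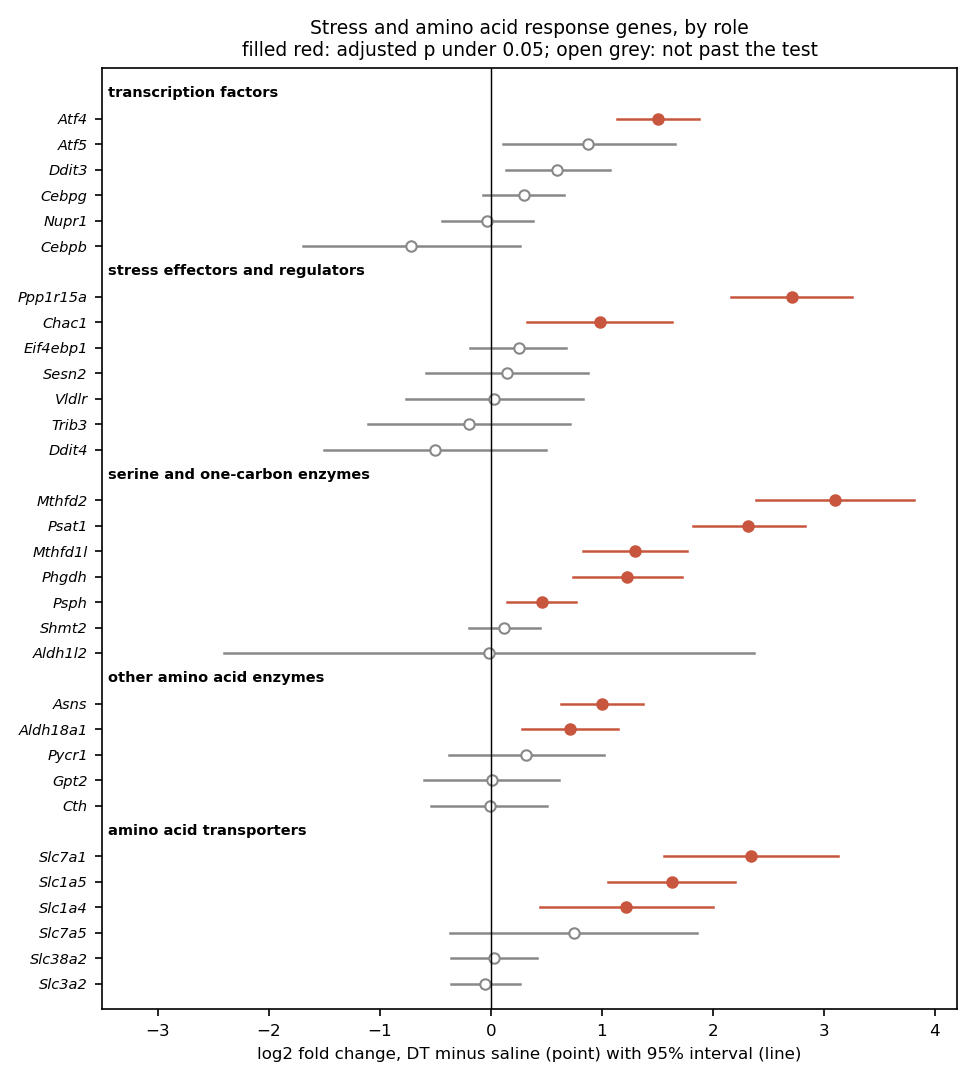
Log2 fold change, DT minus saline, of the 31 members tested, by role. Points are the fitted values over 3 against 3 libraries, lines their 95% intervals, filled red points those past the test. The serine and one-carbon enzymes reach furthest to the right with Mthfd2 at 3.10, and Atf4 is the only filled point among the transcription factors.

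Among the transcription factors, Atf4 itself rose. Atf4 (Entrez 11911, chromosome 15 from 80255184 to 80257545 in GRCm38) encodes the central factor of the response. It stood at 71.7, 84.9 and 83.1 CPM in the saline libraries and at 194, 281 and 207 CPM in the DT libraries, so the groups were well apart. Its mean went from 79.9 ± 7.14 to 227 ± 47.2 CPM (SD, n = 3), which is 1.51 on the log2 scale (SE 0.17, adjusted p = 0.000251). Per gene length it was the most abundant factor of the set, at 43.4 ± 3.89 RPKM in saline and 124 ± 28.0 RPKM in DT (the deposited level per gene length and library size).

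The other 5 factors did not pass. Ddit3 encodes CHOP, a factor that acts with ATF4 and promotes cell death under prolonged stress. It was at 47.2, 54.7 and 54.3 CPM in saline and at 53.1, 97.7 and 86.5 CPM in DT, where library 1 lay within the saline range (log2 fold change 0.60, adjusted p = 0.0535). Without DT library 1 it passed, at 0.82 (adjusted p = 0.00293). Ddit3 also passed in DESeq2 (0.61, adjusted p = 0.0293) and without the filter on low counts (0.58, adjusted p = 0.0276). Its adjusted p ranged from 0.00293 to 0.247 over the alternatives. The span of Ddit3 shares 71 bases with that of Mars1, which rose (0.75, adjusted p = 0.00671), and 77 with that of Mbd6. Whether counting used strand is not stated.

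Atf5, a relative of Atf4 that is also controlled by upstream reading frames, was low. It had 1.95, 1.62 and 1.39 CPM in saline and 2.86, 3.02 and 3.27 CPM in DT, without overlap between the groups (log2 fold change 0.88, 95% interval 0.11 to 1.66, adjusted p = 0.0833). Part of its span (571 bases) lies in that of Nup62, which rose by 1.40 (adjusted p = 0.00038). Cebpg, a common partner of ATF4, was at 49.4 ± 5.87 and 60.7 ± 9.63 CPM (0.30, adjusted p = 0.197). Nupr1, a small stress-induced chromatin protein, was at 25.3 ± 4.45 and 24.8 ± 2.72 CPM (-0.03, interval -0.44 to 0.38). Cebpb, another C/EBP partner, was at 10.2 CPM in saline library 1 and between 2.67 and 4.74 CPM in the other 5 libraries (-0.72, adjusted p = 0.245).

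Of the 7 stress effectors and regulators, Ppp1r15a and Chac1 rose. Ppp1r15a (Entrez 17872, chromosome 7 from 45522917 to 45526268) encodes GADD34, the phosphatase subunit that removes the phosphate from eIF2 and so ends the response. Its levels were 51.8, 69.3 and 64.6 CPM in saline and 277, 555 and 379 CPM in DT. The groups did not overlap, and the DT libraries spread over a wide range. The log2 fold change was 2.71 (SE 0.24, adjusted p = 8.18e-05), or 6.52-fold. Per length it went from the tenth of the 32 members in saline, at 24.9 ± 3.63 RPKM, to the first in DT, at 164 ± 60.0 RPKM. Its span shares 730 bases with that of Tulp2, which was at 1.46 and 0.983 CPM.

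Chac1, an enzyme that breaks down glutathione, was at 2.49, 4.12 and 3.95 CPM in saline and at 7.46, 5.84 and 7.42 CPM in DT. The groups did not overlap (log2 fold change 0.98, SE 0.29, adjusted p = 0.0314). It did not pass without any 1 of the 6 libraries, with adjusted p from 0.0531 to 0.12, and its adjusted p ranged from 0.0137 to 0.168 over all alternatives.

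The other 5 effectors did not pass, and they include genes often read as markers of ATF4 output. Trib3, a pseudokinase that restrains ATF4, was at 2.03, 3.47 and 3.17 CPM in saline and 1.45, 3.29 and 2.83 CPM in DT (log2 fold change -0.20, interval -1.11 to 0.71). DT libraries 2 and 3 lay within the saline range and DT library 1 below it. Sesn2, a leucine sensor that inhibits mTORC1, was at 2.85 ± 0.665 and 3.16 ± 0.168 CPM (0.15, interval -0.58 to 0.88). Ddit4 (REDD1), another inhibitor of mTORC1, was at 3.32, 2.91 and 2.95 CPM in saline and at 3.66, 1.07 and 1.72 CPM in DT (-0.50, adjusted p = 0.434). Eif4ebp1, which blocks the cap-binding factor eIF4E, was at 29.2 ± 6.23 and 34.6 ± 4.90 CPM (0.25, interval -0.19 to 0.68). Vldlr, a lipoprotein receptor, was at 18.1 CPM in saline library 1 and 15.4 CPM in DT library 1, and between 7.45 and 9.60 CPM in the other 4 (0.03). Trib3, Ddit4 and Sesn2 were all under 4 CPM in every library. Their intervals were wide, and the cause of that was not tested.

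**Figure D2:**
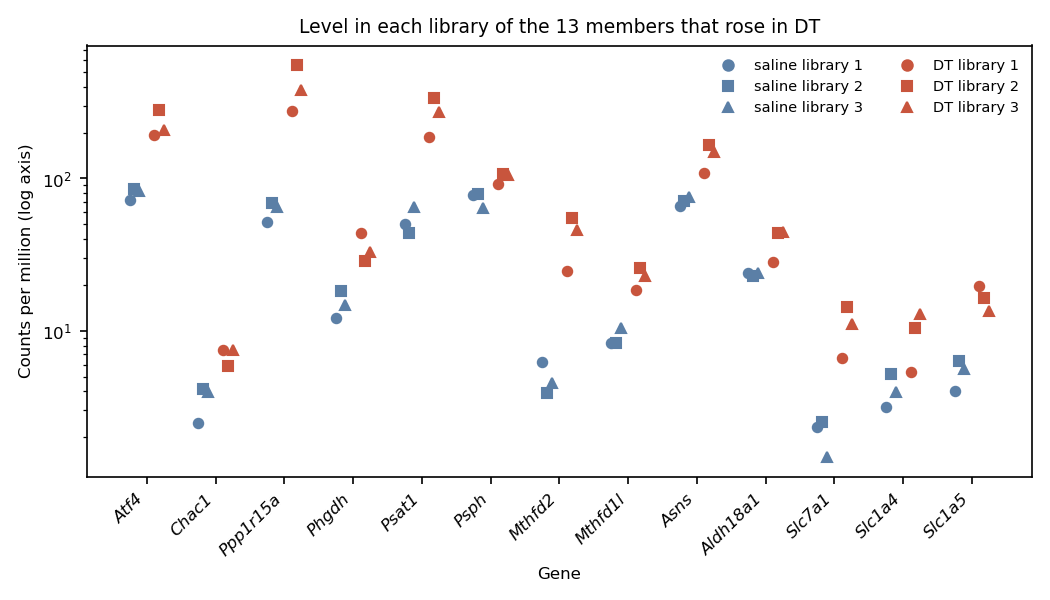
Level of the 13 members that rose, in CPM on a log axis, with 1 symbol per library (blue saline, red DT). For every gene the 3 DT libraries lie above the 3 saline libraries; the gap is narrow for Psph, Aldh18a1 and Slc1a4 and wide for Ppp1r15a, Psat1 and Mthfd2.

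ATF4 and C/EBP proteins bind a composite element whose core is TGATGNAA. This core was searched on both strands in RefSeq promoters of GRCm38.p6, which span 250 bases before to 50 after each annotated start. Of the 32 members 26 had a promoter in the table, and 7 of them held a match, against 4.51% of all 27025 genes in the table. The 7 are shown because they put members that rose beside members that did not. Each line gives 30 bases of the gene's own strand, 5′ to 3′, with the match in capitals; TTNCATCA is the core read on the other strand.
Chac1: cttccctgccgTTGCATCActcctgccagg
Asns: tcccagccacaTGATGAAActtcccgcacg
Slc1a4: tgcctcctgcgTTGCATCAtctccagcctg
Nupr1: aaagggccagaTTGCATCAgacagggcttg
Trib3: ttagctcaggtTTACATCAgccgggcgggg
Vldlr: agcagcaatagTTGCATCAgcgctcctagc
Pycr1: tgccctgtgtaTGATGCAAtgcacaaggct

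Chac1, Asns and Slc1a4 rose, and Nupr1, Trib3, Vldlr and Pycr1 did not pass the test. The first base of the match lay 193 bases before the start in Chac1 (chr2:119351038-119351067 for the bases shown, plus strand). It lay 23 bases before the start in Asns (chr6:7693214-7693243, minus strand) and 4 in Slc1a4 (chr11:20332699-20332728, minus strand). In Nupr1 it was 110 bases before (chr7:126625562-126625591, minus strand), in Vldlr 200 (chr19:27216809-27216838, plus strand) and in Pycr1 103 (chr11:120643833-120643862, minus strand). In Trib3 it began at base 15 of the transcript (chr2:152344028-152344057, minus strand). Of the 12 members that rose and had a promoter in the table, 9 held no match in this window. Among the members with a promoter that did not pass, 4 held a match and 10 did not. No test was run on these shares, and the members were listed as genes of this response. A match describes the letters only, since elements of some of these genes may lie elsewhere.

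Of the 7 serine and one-carbon enzymes, 5 rose and Shmt2 and Aldh1l2 did not pass. Phgdh, Psat1 and Psph catalyse the successive steps from a glycolytic intermediate to serine, and all of them rose. Psat1 (Entrez 107272, chromosome 19 from 15905123 to 15925059) was at 50.6, 43.8 and 64.6 CPM in saline and at 186, 335 and 275 CPM in DT, with a wide gap between the groups. Its log2 fold change was 2.32 (SE 0.23, adjusted p = 0.000129). Phgdh (Entrez 236539, chromosome 3 from 98313171 to 98339969), the first step, was at 12.1, 18.2 and 14.8 CPM and at 44.0, 28.8 and 33.0 CPM. DT library 1 was here the highest of all (1.23, SE 0.22, adjusted p = 0.00312).

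Psph, the last step, was at 78.4, 78.7 and 63.7 CPM in saline and at 91.3, 107 and 106 CPM in DT. It was the highest of the 3 enzymes per length in saline, at 38.1 ± 4.35 RPKM against 18.4 ± 3.75 for Psat1 and 7.56 ± 1.52 for Phgdh, and it changed least (log2 fold change 0.46, SE 0.14, adjusted p = 0.0337). In DT the order was Psat1 at 92.7 ± 27.7, Psph at 52.6 ± 5.47 and Phgdh at 17.7 ± 3.56 RPKM. Psph did not pass when scaled by library size only (0.36, adjusted p = 0.0851), nor without any 1 library other than DT library 1 (adjusted p from 0.0507 to 0.151). Over all alternatives its adjusted p ranged from 0.018 to 0.321. Its span shares 88 bases with that of Cct6a, which rose by 0.76.

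In mitochondria, Shmt2 moves a carbon unit from serine to folate, and Mthfd2 and Mthfd1l carry it on to formate. Mthfd2 (Entrez 17768, chromosome 6 from 83305704 to 83326011) had the greatest fold change of the members, from 6.26, 3.89 and 4.51 CPM to 24.6, 55.4 and 46.1 CPM. The lowest DT library was several times the highest saline library (log2 fold change 3.10, SE 0.32, adjusted p = 0.000174). Mthfd1l (Entrez 270685, chromosome 10 from 3972892 to 4167081) went from 8.33, 8.28 and 10.5 CPM to 18.4, 26.0 and 22.8 CPM (1.30, SE 0.21, adjusted p = 0.00192). Shmt2 was at 126, 138 and 105 CPM in saline and 147, 119.6 and 133 CPM in DT, where library 1 was above the saline range and the other 2 within it, and its log2 fold change of 0.12 had an interval of -0.20 to 0.44. Per length Shmt2 was the highest of the 7 in saline, at 50.1 ± 6.51 RPKM, where Mthfd2 was at 2.0 ± 0.504 RPKM. In DT they stood at 54.4 ± 4.56 and 17.3 ± 6.79 RPKM.

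Aldh1l2, which oxidises the folate unit to carbon dioxide in mitochondria, was barely detected. It had 0, 4 and 36 reads in the saline libraries and 13, 9 and 13 in the DT libraries, so saline library 3 alone set its saline mean. The log2 fold change was -0.02 with an interval of -2.40 to 2.37, and it was 2.61 without saline library 3 (adjusted p = 0.14).

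Further folate, glycine and methionine cycle genes were listed for comparison. Of the 17 tested, 5 (29.4%, against 17.2% of all genes) rose and 0 fell, with a median of 0.23. At an unadjusted p under 0.05, 1 (Aldh1l1) was lower, and DESeq2 and limma also called 0 lower. Without DT library 2 the count that rose was 3, and Dld lost its call there and without saline library 1 or DT library 3. Without DT library 1, 7 rose and 1 fell. Those that rose included Shmt1, the cytosolic counterpart of Shmt2 (1.07, adjusted p = 0.00166), the homocysteine-forming Ahcy (1.46), the thymidylate synthase gene Tyms (1.37) and Dld (0.57), a subunit shared by several mitochondrial complexes. Shmt1 went from 85.1, 134 and 105 CPM to 218, 219 and 244 CPM. Mthfd1, the cytosolic enzyme that joins the steps of Mthfd2 and Mthfd1l, had a log2 fold change of 0.08. Tyms is also an S-phase gene, and all 9 cell cycle genes rose in the same libraries. Whether the rise of Tyms is linked to theirs was not tested.

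The other amino acid enzymes make asparagine, proline, cysteine and alanine. Asns (Entrez 27053, chromosome 6 from 7675165 to 7693209), asparagine synthetase, rose from 65.7, 71.1 and 75.6 CPM to 109, 166 and 150.2 CPM. Its saline libraries were close together and the groups were apart (log2 fold change 1.0, SE 0.17, adjusted p = 0.00218). Aldh18a1, which starts proline synthesis, was at 24.1, 22.9 and 23.9 CPM in saline and at 28.2, 43.8 and 44.3 CPM in DT (0.71, SE 0.20, adjusted p = 0.0219). DT library 1 lay near the saline level. Aldh18a1 did not pass without saline library 2 (adjusted p = 0.0738), saline library 3 (0.0547), DT library 2 (0.106) or DT library 3 (0.119), and its adjusted p ranged from 0.00293 to 0.189 over the alternatives.

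The remaining 3 did not pass. Pycr1, the last step to proline in mitochondria, was at 8.70, 4.81 and 5.51 CPM and at 5.49, 8.59 and 9.74 CPM (0.32, adjusted p = 0.47). Cth, which makes cysteine, was at 20.7 ± 5.40 and 20.5 ± 3.72 CPM, with an interval of -0.54 to 0.51. Gpt2, a mitochondrial alanine transaminase, was at 13.5 ± 5.31 and 13.6 ± 1.15 CPM, with an interval of -0.60 to 0.61.

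Among the transporters, the members that rose were low in saline, and those with the highest levels did not pass. Slc1a5 imports glutamine and other neutral amino acids. It rose from 4.02, 6.34 and 5.64 CPM to 19.7, 16.3 and 13.4 CPM (log2 fold change 1.63, SE 0.26, adjusted p = 0.00163). Slc7a1, the main importer of arginine and lysine, rose from 2.32, 2.50 and 1.48 CPM to 6.66, 14.4 and 11.0 CPM (2.34, SE 0.35, adjusted p = 0.00133). Slc1a4, which carries serine, alanine and cysteine, was at 3.15, 5.18 and 3.99 CPM and at 5.39, 10.5 and 12.8 CPM. DT library 1 lay just above the saline range (1.22, SE 0.35, adjusted p = 0.0263). Slc1a4 did not pass without saline library 1 (adjusted p = 0.0707), saline library 3 (0.0686), DT library 2 (0.0959) or DT library 3 (0.138), and its adjusted p ranged from 0.00564 to 0.229 over the alternatives.

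Slc38a2, an importer of small neutral amino acids such as glutamine and alanine, had the highest level of all members per length in saline. It was at 87.7 ± 9.58 RPKM in saline and 89.3 ± 20.1 RPKM in DT, beside 1.77 ± 0.394 and 5.48 ± 0.971 RPKM for Slc1a5. In CPM it was at 399, 489.5 and 416 in saline and 569, 376 and 385 in DT. The highest and the lowest library were both DT libraries (log2 fold change 0.03, interval -0.36 to 0.42). Slc7a3, a relative of Slc7a1, had 0, 6 and 8 reads in saline and 3, 9 and 12 in DT.

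Slc3a2 is the heavy chain (CD98) that brings a family of light chains, the actual transporters, to the membrane. It was at 264, 279 and 247 CPM in saline and at 296, 242 and 225 CPM in DT, with library 1 above and the other 2 below the saline range (log2 fold change -0.05, interval -0.36 to 0.26). Slc7a5, its leucine-importing light chain, was low, at 4.06, 3.79 and 1.04 CPM and at 2.77, 6.18 and 6.03 CPM (0.75, adjusted p = 0.291). Per length, Slc3a2 was at 73.7 ± 4.28 and 71.2 ± 8.98 RPKM and Slc7a5 at 0.793 ± 0.446 and 1.34 ± 0.537 RPKM. The light chain Slc7a6 was far above Slc7a5 in both groups, at 40.8 ± 6.61 and 44.0 ± 7.69 RPKM (log2 fold change 0.11, interval -0.28 to 0.50).

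Further light chains were read from the list of other amino acid transporters, where 3 of 18 tested (16.7%) rose and 2 fell, near the 17.2% and 11.9% of all genes. Slc7a7, which exchanges cationic for neutral amino acids, rose from 1.08, 1.80 and 1.52 CPM to 10.9, 19.6 and 19.2 CPM (3.49, SE 0.33, adjusted p = 0.000104). Slc7a8, a neutral amino acid exchanger, was at 5.55, 19.8 and 11.8 CPM and at 41.0, 30.4 and 34.8 CPM (1.52, adjusted p = 0.0125). Slc7a11, the cystine importer and a familiar ATF4 target, was near the limit of detection, at 0, 0.278 and 0.174 CPM and 0.891, 0.873 and 0.838 CPM. Its DT libraries were all above its saline libraries, and it met the filter on low counts through the DT libraries alone. Its adjusted p lay just above the threshold of 0.05 in edgeR and under it in limma-voom (edgeR log2 fold change 2.51, interval 0.61 to 4.40). The third gene that rose was Slc38a4, from 17.8 ± 1.86 to 44.6 ± 2.21 CPM (1.33), and Slc43a1 (-1.67) and Slc7a2 (-1.27) fell. Leaving out saline library 2 or either of DT libraries 2 and 3 gave 1 that fell, with 3 without DT library 1 and 4 without saline library 1; where it was 1, Slc7a2 was the gene lost. In DT, Slc7a7 reached 3.65 ± 1.13 RPKM and Slc7a8 6.34 ± 0.827 RPKM, from 0.322 ± 0.0800 and 2.21 ± 1.27 RPKM in saline.

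**Figure D3:**
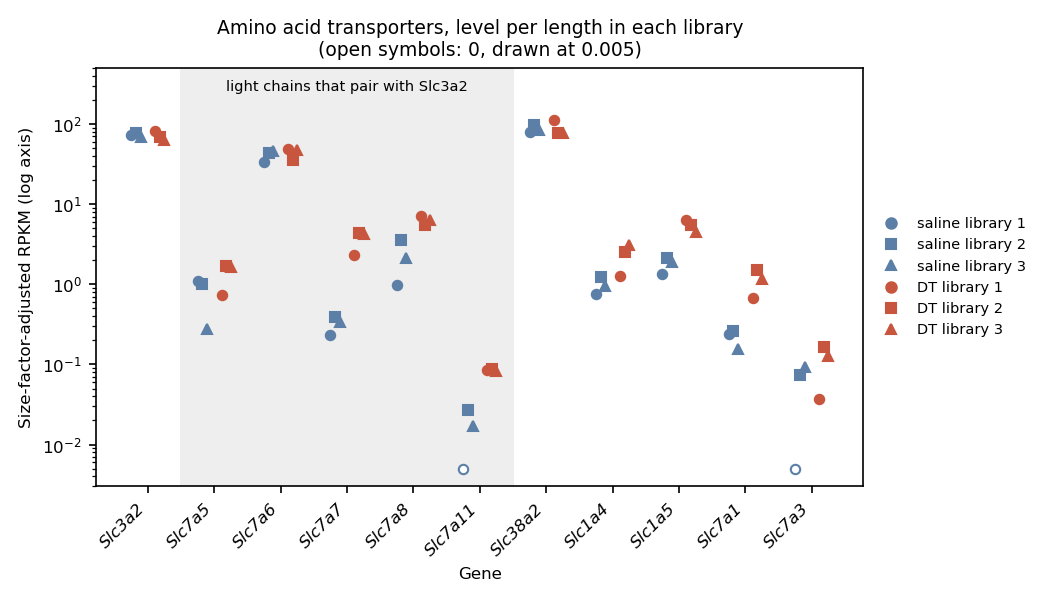
Size-factor-adjusted RPKM of amino acid transporters in each library, log axis, with the light chains that pair with Slc3a2 on grey. Slc3a2, Slc7a6 and Slc38a2 lie between 33.4 and 113 RPKM in every library, and Slc7a7, Slc7a8, Slc1a5 and Slc7a1 are low in saline and higher in every DT library.

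Upstream of Atf4, 4 of 16 genes of the eIF2 kinases and the eIF2 and eIF2B machinery rose and 1 fell (median 0.15). Among all genes tested, 17.2% rose and 11.9% fell. Whether this list differed from those shares was not tested. Eif2ak3, which encodes PERK, the kinase that senses endoplasmic reticulum stress, rose from 13.5, 10.5 and 8.90 CPM to 19.0, 37.5 and 29.3 CPM (1.38, SE 0.27, adjusted p = 0.00474). Eif2ak4 (GCN2), the sensor of uncharged tRNA, was at 13.7, 8.47 and 10.2 CPM and at 4.60, 9.80 and 7.50 CPM (-0.57, adjusted p = 0.196). Eif2ak1 and Eif2ak2 had log2 fold changes of 0.09 and 0.07. Eif2s1, the subunit that these kinases phosphorylate, rose by 1.28, Eif2s2 by 1.06 and Eif2b1 by 0.57. Eif2b1 lost its call when saline library 1 or either of DT libraries 2 and 3 was left out. Impact, a protein that restrains GCN2, fell in every DT library, from 182, 159 and 176 CPM to 66.9, 65.5 and 67.0 CPM (-1.37, SE 0.12, adjusted p = 7.85e-05). Its DT libraries were almost level with each other.

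Of 20 cytosolic aminoacyl-tRNA synthetases, enzymes that charge tRNAs and that include many ATF4 targets, 14 rose and 0 fell. The share that rose was 70.0%, against 17.2% of all genes. The count that fell was 0 also at an unadjusted p under 0.05, in DESeq2 and in limma. All 20 had a positive log2 fold change, against 49.4% of all genes, with a narrow range from 0.20 to 0.97 and a median of 0.48. Rars was at 94.0 ± 10.6 and 180.5 ± 28.8 CPM (0.94, adjusted p = 0.00217), Aars at 56.6 ± 5.39 and 97.5 ± 8.60 CPM (0.78) and Kars at 285 ± 25.9 and 455 ± 35.1 CPM (0.67). Of 17 mitochondrial synthetases Sars2 (5.88%, against 17.2% of all genes) rose, by 0.63 (adjusted p = 0.0382), with a list median of -0.04. There 0 fell, also at an unadjusted p under 0.05, in DESeq2 and in limma. The cytosolic count moved with the libraries left out. It was 16 without DT library 1, 10 without saline library 1 or 3, 7 without DT library 2, 6 without saline library 2 and 5 without DT library 3, and 8 when scaled by library size only. Sars2 did not pass when scaled by library size only, and passed without saline library 1 but without no other single library.

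Fgf21, a hormone gene induced by ATF4 in several tissues, stood in the list of mitochondrial stress. It had 0, 2 and 0 reads in the saline libraries and a level of 1.92, 3.76 and 3.71 CPM in the DT libraries, which is 190 reads in all. The DT to saline ratio was 107, with a 95% exact counting interval of 29.1 to 887 that covers counting error only (edgeR adjusted p = 0.000691). Fgf21 met the filter on low counts through the DT libraries alone. Its p-value and call therefore rest on the group where it is high. Of the 9 genes tested in that list, 4 (44.4%, against 17.2% of all genes) rose. They were Fgf21 and the mitochondrial chaperones Hspe1 (0.81), Hspd1 (0.64) and Hspa9 (0.43). In this list 0 fell, also at an unadjusted p under 0.05, in DESeq2 and in limma. Leaving out any 1 library other than DT library 1 left Fgf21 as the gene that rose, and scaling by library size only left Fgf21 and Hspe1.

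**Figure D4:**
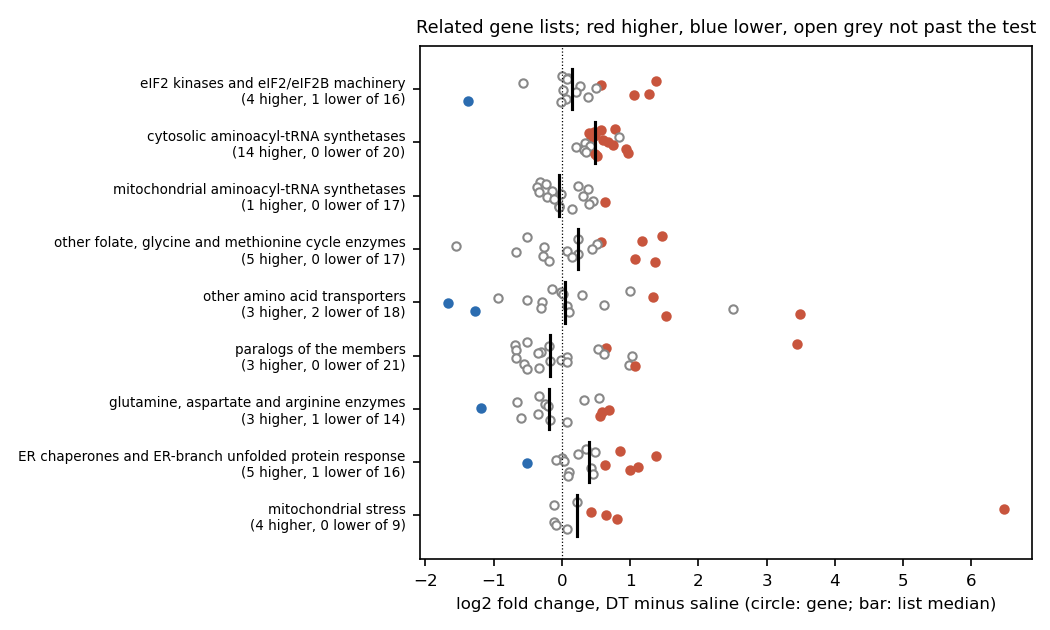
Log2 fold change, DT minus saline, of the tested genes of 9 related lists. Circles are genes and black bars list medians; red genes rose, blue genes fell and open grey genes did not pass. The cytosolic synthetases form a tight cluster around 0.48, the mitochondrial ones lie around 0, and Fgf21 stands alone at 6.48.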

How the data were processed

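RNA-seq libraries of sorted skin cells (3 DT, 3 saline) were analysed from the deposited files. Reads were aligned with GSNAP to GRCm38, per the submitters' processing notes; the aligner version, gene annotation and use of strand are not stated here. The count is the number of reads aligning uniquely to the gene model, per the file headers, so near-identical genes are under-counted. The deposited RPKM was adjusted by a size factor of each library, per the file headers, and serves here for levels per length.

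Symbols and coordinates came from RefSeq of GRCm38.p6, which names 31049 of 36528 identifiers; in RefSeq 12 of 32 members overlap another gene. Counts were tested with edgeR 4.0.16 (R 4.3.3): filterByExpr (minimum count 10, minimum total 15), TMM, robust quasi-likelihood test, DT against saline, no covariate, adjusted p under 0.05. The step was tested on simulated data. Alternatives were other scalings and filters, DESeq2 1.42.0, limma 3.58.1 (voom, and log2(RPKM + 1)), identifier blocks and leaving out libraries. All 32 members were to be named, with the 3 smallest p per direction of each related list and others behind small counts; some further genes were named after their values were seen, and 1 gene is not reported here. Libraries were numbered in record order, which pairs nothing. Members and lists were chosen with earlier results of these data known.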

Additional observations from a re-analysis of the deposited data

How the results depend on the processing

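The count of members that rose was 13 and ranged from 9 to 14 over 16 alternatives, and from 9 to 13 with 1 library left out; the count that fell was 0 in each. The count of transcription factors that rose was 1, but 2 without the filter on low counts, in DESeq2 and in limma on log2(RPKM + 1), and 1 to 2 with 1 library left out. Of 496 member values, 432 kept direction and side of the threshold, 24 lost the call, 4 gained it and 36 changed sign; none of the 36 passed the test on either side.

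The sign changes concern members near 0. With scaling by library size only, Vldlr was at -0.08, Gpt2 at -0.10 and Slc38a2 at -0.07. Without the filter, Gpt2 was at -0.02 and Slc38a2 at -0.00, and with a filter on mean count Gpt2 was at -0.02. Aldh1l2 was at 1.68 in voom, and in limma on log2(RPKM + 1) it was at 0.00 and Cth at 0.01. Within the larger identifier series (2 against 2 libraries) Vldlr was at -0.03, Aldh1l2 at 2.68, Cth at 0.12 and Gpt2 at -0.09. With 1 library left out, Nupr1 ranged from -0.17 to 0.10, Trib3 from -0.45 to 0.08, Sesn2 from -0.04 to 0.25, Vldlr from -0.24 to 0.54, Aldh1l2 from -0.63 to 2.61, Cth from -0.23 to 0.12, Gpt2 from -0.18 to 0.35, Slc3a2 from -0.18 to 0.00 and Slc38a2 from -0.20 to 0.12. The cause was not tested.

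No paired analysis was possible because the labels carry no replicate numbers and document no pairing. As a stand-in that no label supports, consecutive identifiers were used as a replicate block, and 13 members rose, with Aldh1l2 at 1.0 and Cth at 0.00, and with identifier series as a block 13 rose, with Aldh1l2 at 0.95. Within the larger series 9 members rose, 1097 of all genes rose and 473 fell. There the related counts that rose were 3 cytosolic synthetases, 2 eIF2 genes, 3 folate genes and 3 chaperones. Scaling by library size only shifted the median of all genes to -0.109. Slc7a1 was at 0.78 in limma on log2(RPKM + 1), a scale that understates low genes. Aldh1l2, Slc7a3 and Slc7a11 had few reads, and the part of sequencing depth in their values was not tested.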

Other observations

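Paralogs of the members were listed beside them. Of 21 tested, Atf3, Shmt1 and Chac2 (14.3%, against 17.2% of all genes) rose and 0 fell in edgeR (4 were lower at an unadjusted p under 0.05, and 1 fell in DESeq2), with a median log2 fold change of -0.18. Atf3, a stress factor that ATF4 induces, went from 16.7, 12.5 and 49.5 CPM in saline to 281, 329.9 and 248 CPM in DT (3.45, SE 0.45, adjusted p = 0.000588), with saline library 3 above the other saline libraries. Chac2, the constitutive relative of Chac1, rose by 0.64 (adjusted p = 0.0282), but passed without 1 library only when that was saline library 3 or DT library 1. Ppp1r15b, the constitutive counterpart of Ppp1r15a, had a log2 fold change of -0.01 with an interval of -0.36 to 0.34. Without DT library 1, 5 paralogs rose and 2 fell.

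Among 14 enzymes of glutamine, aspartate and arginine, Got1 (0.69), Got2 (0.59) and Oat (0.56) rose, 21.4% of the list against 17.2% of all genes. Glul fell (-1.19, adjusted p = 0.00875), where 11.9% of all genes fell, and the list median was -0.20. Glul, glutamine synthetase, averaged 92.3 ± 19.4 CPM over the saline libraries and 40.3 ± 14.4 CPM over the DT libraries (SD, n = 3). The count that rose was 4 without DT library 1, 2 without saline library 3 or DT library 2, 1 without saline library 1 or 2 and 0 without DT library 3 (Got1 lost without DT library 3 alone), and the count that fell was 3 without saline library 1. Of 16 chaperones and genes of the endoplasmic reticulum branch, Hspa5 (1.11), Calr (0.85), Manf (1.0), Dnajb9 (1.38) and Hsp90b1 (0.63) rose. These were 31.2% of the list, against 17.2% of all genes. Hsp90b1 did not pass without DT library 3. Herpud1 fell (-0.51, adjusted p = 0.014), though not without saline library 2 or 3.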
